A study of Mus musculus with 2 samples.

Results

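The cells described here are brain endothelial cells of the mouse, taken from single-cell RNA sequencing counts of unsorted brain tissue. They were chosen among kept cell barcodes, which held 500 genes or more and no more than 10% mitochondrial UMIs (unique molecular identifiers, each counting 1 captured RNA molecule). A kept cell was taken as endothelial when it had a UMI of at least 5 of the 9 genes Cldn5, Flt1, Pecam1, Ly6c1, Slco1a4, Itm2a, Esam, Cdh5 and Slco1c1. It also had to have a UMI of at most 2 of the 7 mural genes Vtn, Kcnj8, Abcc9, Rgs5, Pdgfrb, Higd1b and Atp13a5, which mark pericytes and smooth muscle. This chose 661 of the 9367 kept cells of total brain, a share of 7.06% (exact Clopper-Pearson 95% interval 6.55% to 7.59%). The cells were thus chosen by the measured UMIs of those 16 genes, and their levels are a description and support nothing.

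The study examined STING, a receptor of the cytosolic DNA sensing pathway, in resident cell populations of ageing mice. Total brain was unsorted tissue of males and females pooled, aged 2 and 24 months, with wild-type (WT) and STING-KO mice in 1 matrix. The age label of that sample reads 240 for the older mice, where its title gives 24. Sorted brain was a FACS-sorted sample of males aged 3 and 12 months, again with WT and STING-KO mice in 1 matrix, and its sorting gate is not stated in the labels. The design text states that 2 mice were grouped per genotype and age. Each matrix carries 4 barcode suffixes, numbered 1 to 4, whose age, sex and genotype are in none of the sources used. Each group is therefore 1 pooled sample. Cells and suffixes are not replicates, no p-value is given, and ages and genotypes cannot be told apart. Intervals cover counting error only. A level is the sum of a gene's UMIs in a group of cells, per 1000000 UMIs of that group (CPM, counts scaled to that total), and log2 ratios add 1 CPM to both sides.

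Endothelial cells line every blood vessel, and in the brain they form the blood-brain barrier. Claudin-5 and occludin seal the junctions between neighbouring cells, few vesicles cross the cell, and dedicated carriers bring in glucose, amino acids and thyroid hormone while efflux pumps return lipid-soluble compounds to the blood. Wnt and Norrin signals from the surrounding tissue maintain this state. Along the vessel tree the cells change gradually in what they express, with arterial genes under Notch control at the inflow side, carriers of nutrients in capillaries, and leukocyte adhesion molecules in venules.

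The promoters of 4 genes that carry the identity of these cells are shown first: 3 of the markers that define them and Tie1, an endothelial receptor kinase outside the rule. Each is the 250 bases before a gene's start in the RefSeq promoter table (build GRCm38.p6), printed 5′ to 3′ on the gene's strand, and the first start was taken where the table lists several. Capitals mark AGGAAG or its reverse complement CTTCCT, a spelling of the extended site of ETS factors, which are regulators of endothelial genes. Cldn5 encodes the main claudin of the barrier, and its window lies at chr16:18776597-18776846 on the plus strand. The window of Flt1, a receptor for vascular endothelial growth factor (VEGF), lies at chr5:147726012-147726261 on the minus strand. That of Slco1a4, an organic anion carrier of the vessel wall, lies at chr6:141856221-141856470 on the minus strand, and that of Tie1 at chr4:118489850-118490099 on the minus strand.
Cldn5: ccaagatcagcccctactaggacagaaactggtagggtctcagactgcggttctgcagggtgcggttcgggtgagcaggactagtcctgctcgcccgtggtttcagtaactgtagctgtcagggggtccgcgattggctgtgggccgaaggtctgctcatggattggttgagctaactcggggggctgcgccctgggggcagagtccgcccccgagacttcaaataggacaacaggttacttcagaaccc
Flt1: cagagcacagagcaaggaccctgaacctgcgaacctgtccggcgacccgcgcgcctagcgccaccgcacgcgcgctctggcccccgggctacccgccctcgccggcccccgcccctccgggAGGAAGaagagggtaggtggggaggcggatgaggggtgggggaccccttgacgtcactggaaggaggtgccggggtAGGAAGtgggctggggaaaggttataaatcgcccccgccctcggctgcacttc
Slco1a4: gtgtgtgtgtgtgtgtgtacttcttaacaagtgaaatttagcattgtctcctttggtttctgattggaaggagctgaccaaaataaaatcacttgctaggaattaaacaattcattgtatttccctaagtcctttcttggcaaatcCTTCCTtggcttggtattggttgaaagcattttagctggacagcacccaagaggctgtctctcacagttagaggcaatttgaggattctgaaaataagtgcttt
Tie1: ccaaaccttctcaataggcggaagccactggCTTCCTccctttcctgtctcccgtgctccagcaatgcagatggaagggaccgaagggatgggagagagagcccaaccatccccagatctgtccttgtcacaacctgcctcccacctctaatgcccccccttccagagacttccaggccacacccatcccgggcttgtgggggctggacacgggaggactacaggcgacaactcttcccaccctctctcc
The Flt1 window held 2 matches, the nearer lying 53 bases before the start. The Slco1a4 window held 1 match 104 bases before the start, and the Tie1 window held 1 match 219 bases before it. The Cldn5 window held none of these letters, and held the letters CCAAT or their reverse complement at 2 places. Among the 9 endothelial rule genes and the 20 genes named below, 18 of 29 matched the promoter table, and 13 of those 18 windows (72.22%) held AGGAAG on either strand, against 29.48% of all 32851 promoters. AGGAAG contains the shorter ETS core GGAA, which stood in 94.44% of the 18 windows and 93.45% of all promoters. The forkhead letters TGTTTAC stood in 5.556% against 3.166%, the SOX letters ACAAAG in 11.11% against 16.46%, and CCAAT in 38.89% against 33.85%, both strands counted each time. A match is a description of letters in a window and not a binding site.

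Endothelial cells were found under all 4 suffixes. Suffix 1 held 77 of them, suffix 2 held 84, suffix 3 held 282 and suffix 4 held 218, which were 7.05%, 5.71%, 7.74% and 6.90% of the kept cells of each suffix. Together they carried 4331562 UMIs, with a median of 4117 UMIs and 2040 genes per cell, against 1692 UMIs and 1126 genes over all kept cells. The median mitochondrial share was 5.90%. Barcode sequences occurring under more than 1 suffix numbered 23 among all barcodes and 0 among endothelial cells. The doublet caller Scrublet called 7 of the 9367 kept cells (0.0747%), too few for a caller that has worked, and no cell was removed on its calls. Tmem173, the gene of STING, was at 0, 4.52, 12.9 and 0 CPM in endothelial cells of suffixes 1 to 4, and at 1.91, 30.2, 32.6 and 2.62 CPM in the other kept cells. No genotype was assigned from these levels.

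All 9 rule genes were read in 369 cells, 8 in 111, 7 in 58, 6 in 59 and 5 in 64. Cells just inside the threshold, with 5 genes, had 403 CPM of Cldn5, and cells just outside it, with 4 genes, had 207 CPM. Cells with all 9 had 5296 CPM. Over 1% of UMIs came from the markers of 1 other cell type in 48.4% of the cells with 5 genes, in 8.40% of those with 9, and in 71.4% of the 98 cells with 4. On the mural side, 276 endothelial cells read none of the 7 mural genes, 266 read 1 and 119 read 2, while 58 cells just outside the limit read 3. The median depth of these 4 classes, in the same order, was 1933.5, 5828.5, 9125 and 12294 UMIs per cell. Rgs5, a mural gene of the rule, stood at 851 CPM in the endothelial cells, against 3692 CPM in mural cells and 628 CPM in the other kept cells.

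The genes that chose the cells had the following levels. Cldn5, at chr16:18776847-18778262 on the plus strand in GENCODE M21 on GRCm38, had 5214, 4309, 4070 and 4734 CPM in suffixes 1 to 4 of the endothelial cells, against 655 CPM over the other kept cells. Flt1 had 3974, 3371, 3161 and 3690 CPM, against 556 CPM. Slco1a4 had 1792, 1603, 2268 and 2912 CPM, against 334 CPM. Ly6c1, a surface protein of microvessels, had 3629, 3310, 2834 and 3237 CPM, against 463 CPM. Each of these 4 markers was higher in every suffix of the endothelial cells than in the other cells as a whole. The other cells hold 247 barcodes that read at least 5 endothelial and at least 3 mural genes and were left out by the mural limit. Those 247 barcodes had a median of 15850 UMIs and carried 91.3% of the other cells' UMIs of the 9 endothelial genes. In the 8063 other cells with under 3 of the 9 genes, Cldn5 stood at 32.9 CPM, and the level over all other cells thus lies mostly in these mixed barcodes.

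The label was checked on 25 endothelial genes outside the rule, and all 25 had UMIs in the cells. Ptprb, a phosphatase of endothelial junctions, was at 1280 CPM, against 9.82 CPM in mural cells and 249 CPM in the other kept cells. Egfl7, a secreted endothelial protein, was at 1025 CPM, against 26.2 CPM in mural cells and 154 CPM in the others. Kdr, the main VEGF receptor, was at 422 CPM with 0 UMIs in mural cells. Tie1 was at 207, 174, 276 and 326 CPM in suffixes 1 to 4, against 40.5 CPM over the other cells, 2.71 CPM in those with under 3 rule genes and 0 UMIs in mural cells. The suffix ranges of 21 of these 25 genes did not overlap between endothelial and other cells, with a ratio of at least 2. Among all genes tested, 12.7% were higher by the same call. The plot of identity genes by suffix shows these levels, and the endothelial name was kept as a description.

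**Figure D1:**
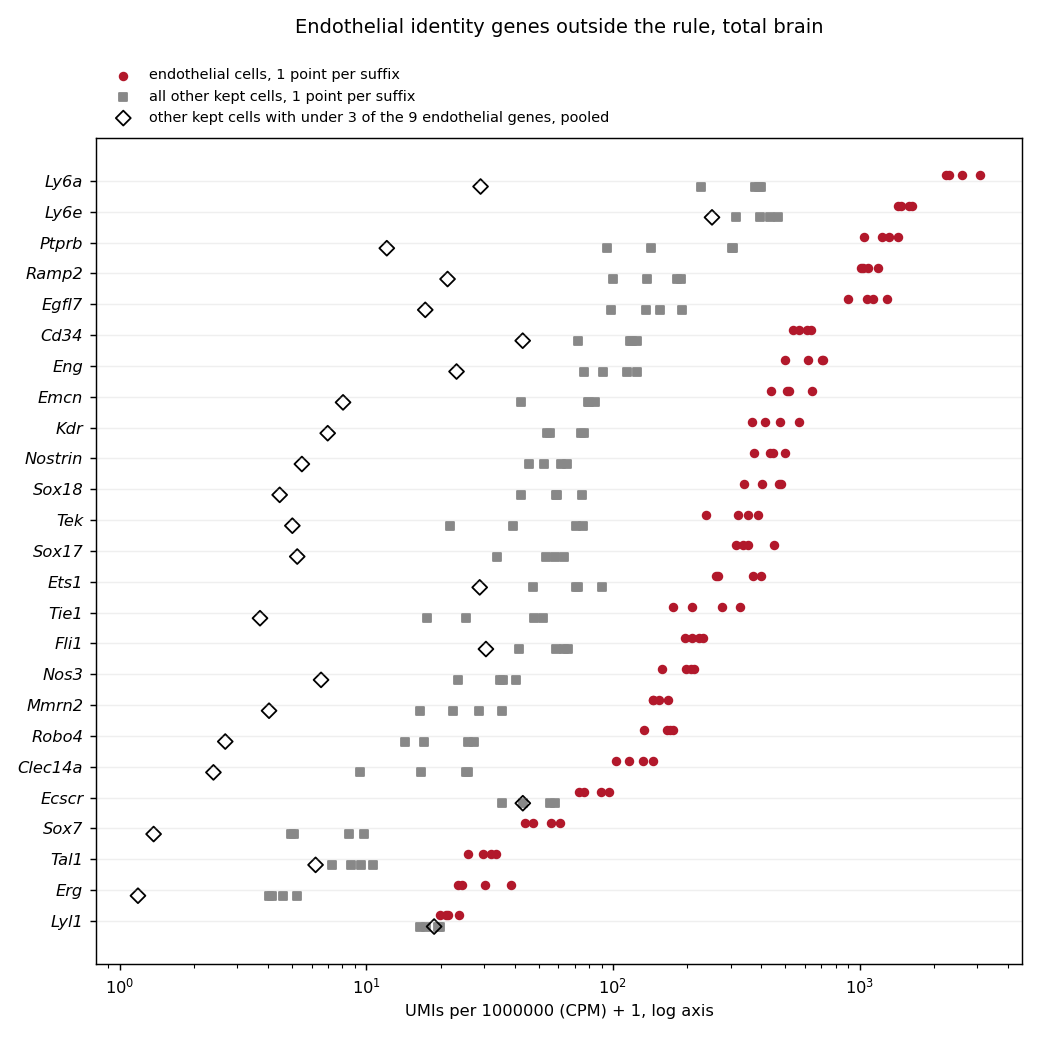
Levels of the 25 endothelial identity genes outside the rule (CPM + 1, log axis) in endothelial cells (red circles, 1 per suffix), in all other kept cells (grey squares, 1 per suffix) and in other cells with under 3 of the 9 rule genes (open diamonds, pooled). Red points lie right of grey points for most genes, and diamonds lie furthest left, as for Tie1 with 2.71 CPM.

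A gene was called different between endothelial cells and another group when it reached 50 CPM in 1 of the groups, its ratio was at least 2, and its ranges over the suffixes did not overlap. Against the other kept cells, 682 of 5371 tested genes (12.7%) were called higher and 1002 (18.7%) lower, with a median log2 ratio of -0.14. With TMM scaling, which shifted the named genes by 0.32 on the log2 scale, the counts were 961 higher and 736 lower. This comparison uses the same cells and counts as the rule, so the counts below describe the cells and nothing is read from them. Of the 25 identity genes, 22 were tested, 21 were called higher and 0 lower, with a median log2 ratio of 2.57.

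The 20 genes with the highest ratios had log2 ratios between 2.64 and 3.12. The first was Cxcl12, a chemokine presented on the vessel wall, at 2819, 2238, 2134 and 2455 CPM in suffixes 1 to 4. Its pooled level was 2306 CPM (95% counting interval 2261 to 2352), against 264 CPM in the other cells and 21.3 CPM in those with under 3 rule genes. Pglyrp1, a peptidoglycan recognition protein, was at 964.5 CPM against 121 CPM. Hmcn1, the extracellular matrix protein hemicentin, was at 415 CPM against 51.9 CPM. The 20 also held Ctla2a, Nostrin (a binding partner of endothelial nitric oxide synthase), Adgrl4 (an adhesion receptor), Grrp1, Tie1, Egfl7, Slc7a5, Ly6a, Robo4 (a guidance receptor of vessels), AU021092, Emcn (an endothelial sialomucin), Ramp2 (a subunit of the adrenomedullin receptor), Vwa1, Ccm2l, Cd93, Cyyr1 and Sox18 (a transcription factor of endothelium). In all 20, the lowest suffix of the endothelial cells stood above the highest suffix of the other cells, which the call required.

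Mural cells are the pericytes and smooth muscle cells wrapped around these vessels. They were taken as the 91 kept cells with at least 4 of the 7 mural and at most 4 of the 9 endothelial genes. Pericytes and smooth muscle were not told apart, and 6 smooth muscle markers summed to 841 CPM in these cells. Against the mural cells, 855 of 5436 tested genes (15.7%) were called higher in endothelial cells and 885 (16.3%) lower, with a median log2 ratio of -0.24, and under TMM scaling 1168 and 533. Of the 10 genes with the highest ratios, 8 had 0 UMIs among the 305541 UMIs of the mural cells, where 3 counts, the limit taken for a count of 0, would be 9.82 CPM. Against that floor Sema3c, a secreted guidance protein, was at least 65.3-fold higher at 641 CPM. Cyyr1 was at least 45.0-fold higher, Kdr at least 43.0-fold, Wfdc1 at least 29.1-fold and Tie1 at least 28.0-fold. Lsr, a protein of tricellular junctions, was at least 27.7-fold higher, Paqr5 at least 21.7-fold and Clic5 at least 21.2-fold. The remaining 2 were Ly6a with 2373 CPM and 2 mural UMIs, and Pglyrp1 with 1 mural UMI.

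Carriers of the blood-brain barrier were high in the endothelial cells. Slc2a1, the glucose carrier of the vessel wall, at chr4:119108711-119137983 on the plus strand, had 2879, 2575, 2194 and 2579 CPM in the endothelial cells of suffixes 1 to 4. Pooled, it was at 2414 CPM, against 65.5 CPM in mural cells and 438 CPM in the other cells. Every endothelial suffix exceeded both of those levels. Of the 22 transporters and efflux pumps, 21 were tested against the other cells, with a median log2 ratio of 2.31. Of these, 20 were called higher and 0 lower, against 12.7% and 18.7% of all genes tested. Against mural cells 19 were called higher and 1 lower, where 15.7% and 16.3% of all genes tested were. The median was 4.2, or 3.90 with members at 0 in mural cells set to their bound.

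The efflux pumps Abcb1a (P-glycoprotein) and Abcg2 were at 1149 and 754 CPM, against 13.1 and 52.4 CPM in mural cells and 189 and 127 CPM in the other cells. Slc7a5, the large neutral amino acid carrier, was at 791 CPM, and Slc16a1, the monocarboxylate carrier, at 449 CPM, against 9.82 and 13.1 CPM in mural cells. Mfsd2a, the lipid carrier that restrains vesicle transport, was at 241 CPM, against 1 UMI in mural cells and 42.3 CPM in the other cells. Slc6a6, the taurine carrier, was at 1697 CPM against 81.8 CPM in mural cells. The organic anion carrier Slc22a8 was at 384 CPM in endothelial and 370 CPM in mural cells and was not called between them. Slc6a8, the creatine carrier, was the member called lower, with 33.2 CPM in endothelial and 78.6 CPM in mural cells. It was not called lower with TMM scaling, nor with a stricter cell filter (1000 genes, 5% mitochondrial UMIs).

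Among 14 junction genes, 11 were tested against the other cells, with a median log2 ratio of 1.61. Of these, 8 were higher and 1 lower, against 12.7% and 18.7% of all genes tested. The share lower was below that background. Ocln, encoding occludin, was at 290 CPM, against 6.55 CPM in mural cells and 56.6 CPM in the other cells. Lsr was at 272 CPM, with 0 UMIs in mural cells. Tjp1, the scaffold ZO-1, was at 396 CPM, against 232 CPM in mural cells and 130 CPM in the other cells. Jam3 was the member called lower, at 14.8 CPM against 141 CPM in mural cells and 68.7 CPM in the others. Cldn3, another claudin, was at 0.923 CPM and below the level tested.

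**Figure D2:**
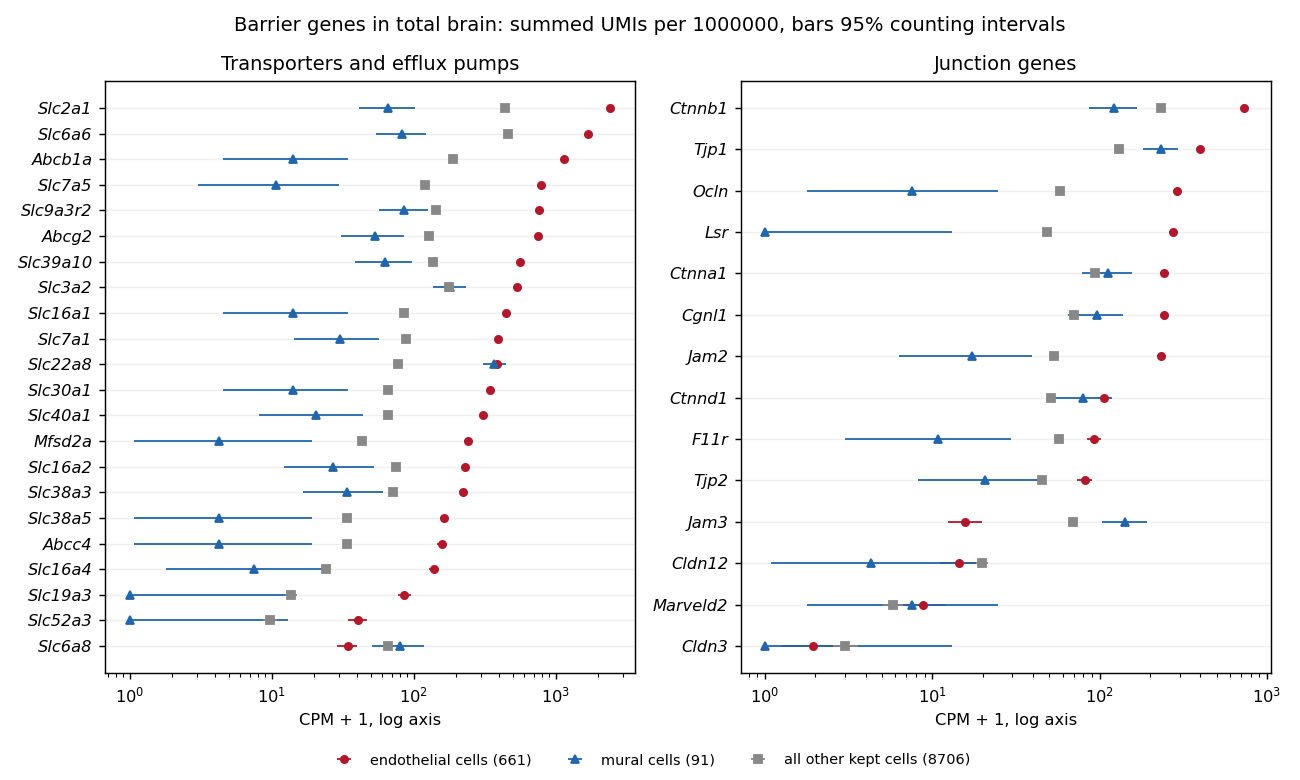
Summed levels (CPM + 1, log axis) of 22 transporters and efflux pumps (left) and 14 junction genes (right) in 661 endothelial cells (red circles), 91 mural cells (blue triangles) and 8706 other kept cells (grey squares), with bars for 95% counting intervals. Red points lie furthest right for most carriers, as for Slc2a1 at 2414 CPM, while Slc22a8 lies level with mural cells (384 and 370 CPM) and Slc6a8 lies left of them.

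Of 12 genes of receptor transport and caveolae, 9 were tested against the other cells. Of these, 8 were higher and 1 lower, against 12.7% and 18.7% of all genes tested. The share lower was below that background. Tfrc, the transferrin receptor that carries iron across the wall, was at 220 CPM, against 26.2 CPM in mural cells and 81.8 CPM in the other cells. Cav1 and Cavin2, which shape caveolae, were at 262 and 430 CPM, against 6.55 CPM each in mural cells. Lrp1, a lipoprotein receptor, was the member called lower, at 67.2 CPM against 494 CPM in mural cells and 262 CPM in the others. Plvap, the diaphragm protein of fenestrated vessels outside the barrier, was at 5.77 CPM, with a UMI in 10 of the 661 cells, and was not tested.

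In the Wnt and Norrin pathway, 16 of 17 genes were tested against the other cells, with a median log2 ratio of 1.90. Of these, 14 were higher and 0 lower, against 12.7% and 18.7% of all genes tested. Against mural cells 8 of 16 were higher and 0 lower, where 15.7% and 16.3% of all genes tested were. The receptor Fzd4 was at 222 CPM, the transcription factor Lef1 at 356 CPM and the forkhead factor Foxq1 at 320 CPM, against 9.82, 9.82 and 6.55 CPM in mural cells. Adgra2, the co-receptor Gpr124, was at 91.9 CPM in endothelial and 101 CPM in mural cells.

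The VEGF, angiopoietin and transforming growth factor list shares Kdr, Tie1, Tek and Eng with the identity list. Of its 17 members 12 were tested against the other cells, with a median log2 ratio of 2.28. Of these, 10 were higher, against 12.7% of all genes tested. Its target genes Id1 and Id3 were at 903 and 801 CPM, against 22.9 and 58.9 CPM in mural cells. Id1 was at 1675, 1433, 681 and 857 CPM in suffixes 1 to 4, so that suffixes 1 and 2 were above suffixes 3 and 4. All 7 tested Notch genes of 9 were higher than in the other cells, against 12.7% of all genes tested. Against mural cells 4 of 9 were higher and 2 lower, where 15.7% and 16.3% of all genes tested were. The share lower was thus near the background. The lower were the targets Hey2 and Heyl, at 2.77 and 2.31 CPM against 81.8 and 167 CPM.

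Interferon-response genes were called higher against the other cells in 17 of 24 tested of 29 members, and lower in 0, with a median log2 ratio of 1.49. Of all genes tested, 12.7% were higher and 18.7% lower. Ifitm3, a membrane protein that blocks virus entry, was at 917 CPM against 284 CPM in the other cells. Isg15, a ubiquitin-like interferon product, was at 150 CPM against 52.2 CPM. Of 14 genes of major histocompatibility complex class I, 10 were tested, with H2-D1 at 938 CPM against 367 CPM. Of these 10 genes 7 were higher, against the same 12.7%. With a stricter cell filter (1000 genes, 5% mitochondrial UMIs) 3 were higher, and the same number in cells reading 0 mural genes. H2 genes share near-identical sequence, so reads may have been split or lost among them. H2-Q7 was at 100, 108, 36.5 and 20.4 CPM in suffixes 1 to 4, and H2-Q6 at 62.5, 43.0, 9.69 and 3.78 CPM, so both stood higher in suffixes 1 and 2.

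Of 11 DNA sensing genes, 3 were tested, Samhd1 was higher and Ddx41 lower, against 12.7% and 18.7% of all genes tested, and the median log2 ratio was -0.10. Without suffix 4 neither was called. Tmem173 had 6.93 CPM in endothelial cells, with a UMI in 17 of 661 cells, against 18 CPM in the other cells, and was below the level tested. Of 13 cell cycle inhibitors and p53 targets, 7 were tested and 1 was called, Cdkn1a (p21), a share near the 12.7% of all genes tested. Cdkn1a was at 670 CPM, against 140 CPM in the other cells. Cdkn2a, the gene of p16, had 0 UMIs in endothelial cells, where 3 counts would be 0.693 CPM. Of 13 genes of adhesion and leukocyte entry, 6 were tested. Icam2 and Cxcl12 were higher and Alcam lower, against 12.7% and 18.7% of all genes tested, and the share lower was near that background.

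Immediate early and flow-responsive genes differed between suffixes. Klf2, a transcription factor that responds to shear stress, had 3859, 2503, 1734 and 2120 CPM in the endothelial cells of suffixes 1 to 4, against 497 CPM over the other cells. The summed level of the 16 genes was 22402, 16331, 10770.5 and 12361 CPM. Suffix 1 was highest and suffix 3 lowest, and the 4 values for Klf2 follow the same order. Against the other cells 7 of 16 were called higher and 0 lower, where 12.7% and 18.7% of all genes tested were. Against mural cells 15 of 16 were higher, where 15.7% were. The 7 were 4 under the stricter cell filter and 2 in cells reading 0 mural genes.

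Across suffixes, 520 of 3919 tested genes (13.3%) had a highest suffix at least 2-fold over the lowest. The 10 with the largest spread were Calml4, Ttr, P2ry12, Fxyd1, Rarres2, Igfbp2, Cryab, Lyz2, Chchd10 and Ptgds. Ttr, the transthyretin gene of the choroid plexus, was at 315, 509, 15670 and 402 CPM, so suffix 3 stood apart. Ptgds, a prostaglandin synthase of the meninges and oligodendrocytes, was at 153, 1350, 905 and 190 CPM. P2ry12 is a microglial receptor and Lyz2 a lysozyme of macrophages. None of these 10 is an endothelial identity gene of the lists used here.

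Markers of other cell types were counted in the endothelial cells. The 7 erythroid markers summed to 41879.6, 27029, 16351 and 53629.9 CPM in suffixes 1 to 4, against 13443 CPM in the other cells. All 7 had UMIs, 29 cells held over 1% of them, and in the highest cell they made 90.2% of UMIs. The 7 choroid plexus markers summed to 472, 739, 16421 and 521 CPM, against 30852 CPM in the other cells, and 7 cells held over 1% of them. Suffix 3 stood apart for this list. Neuron, astrocyte, microglia and oligodendrocyte markers summed to 2191, 726, 1529 and 902 CPM, against 13462, 1001, 5368 and 4720.2 CPM in the other cells, so each was lower in endothelial cells. Fibroblast and lymphocyte markers summed to 31.9 and 18.9 CPM, with Cd3e at 0. In all, 109 of the 661 cells (16.5%) held over 1% of UMIs from 1 such list.

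**Figure D3:**
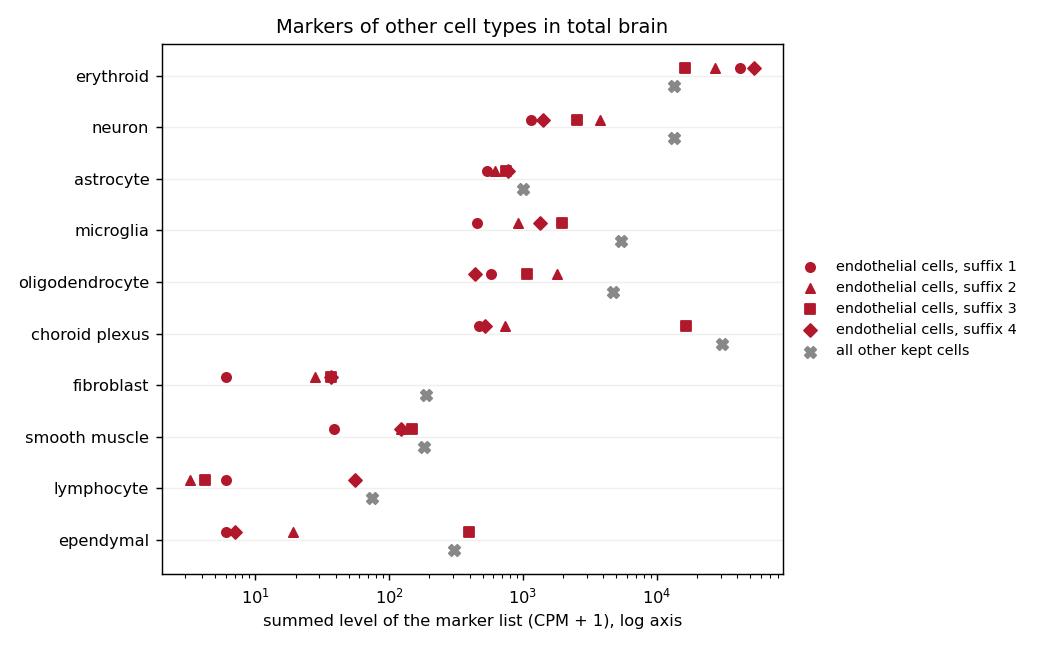
Summed level of each marker list (CPM + 1, log axis) in endothelial cells of suffixes 1 to 4 (red symbols) and in all other kept cells (grey crosses). Erythroid markers lie right of the grey cross in all 4 suffixes (16351 to 53629.9 CPM against 13443 CPM), and choroid plexus markers lie nearest to it in suffix 3.

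Arterial, venous and capillary reads were then separated with 21 anchor genes. A cell was arterial-reading when it had UMIs of at least 2 of the 6 arterial anchors Bmx, Gkn3, Sema3g, Efnb2, Vegfc and Fbln5, and of more arterial than venous anchors. It was venous-reading when it had at least 2 of the 9 venous anchors, among them Nr2f2, Slc38a5, Vcam1, Il1r1, Lcn2, Ackr1, Tmem252 and Selp, and more venous than arterial anchors. It was capillary-reading with under 2 of either and at least 2 of the 6 capillary anchors Mfsd2a, Tfrc, Slc16a1, Slc7a5, Rgcc and Spock2. These classes are ranges of a reading and not cell types. There were 83 arterial-reading cells (12.6%, 95% interval 10.1% to 15.3%), 215 venous-reading cells (32.5%, 29.0% to 36.2%) and 299 capillary-reading cells (45.2%, 41.4% to 49.1%), and 64 cells were unassigned.

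The reading moved with depth. Arterial-reading cells had a median of 6579 UMIs and venous-reading cells 7620 UMIs, against 2598 UMIs in capillary-reading cells. When the 603 cells with at least 1000 UMIs were thinned to that number, leaving out 58, the shares were 2.82% arterial-reading, 8.79% venous-reading and 66.2% capillary-reading. Many cells lay near the limits: 40 arterial-reading and 99 venous-reading cells had exactly 2 anchors of their own, and 47 cells had at least 2 of both. A venous anchor was read in 72.3% of arterial-reading cells, and an arterial anchor in 33.5% of venous-reading cells. Capillary anchors were shared, with at least 2 in 90.4% of arterial-reading and 94.9% of venous-reading cells. The shares therefore describe these cells at this depth and are no estimate of the vessel tree.

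By suffix, arterial-reading shares were 16.9%, 17.9%, 12.1% and 9.63%, and venous-reading shares were 32.5%, 22.6%, 36.5% and 31.2%. Capillary-reading shares were 40.3%, 50%, 42.6% and 48.6%. Venous- and capillary-reading cells outnumbered arterial-reading cells under every suffix, and all 3 sets of 95% intervals overlapped between suffixes.

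**Figure D4:**
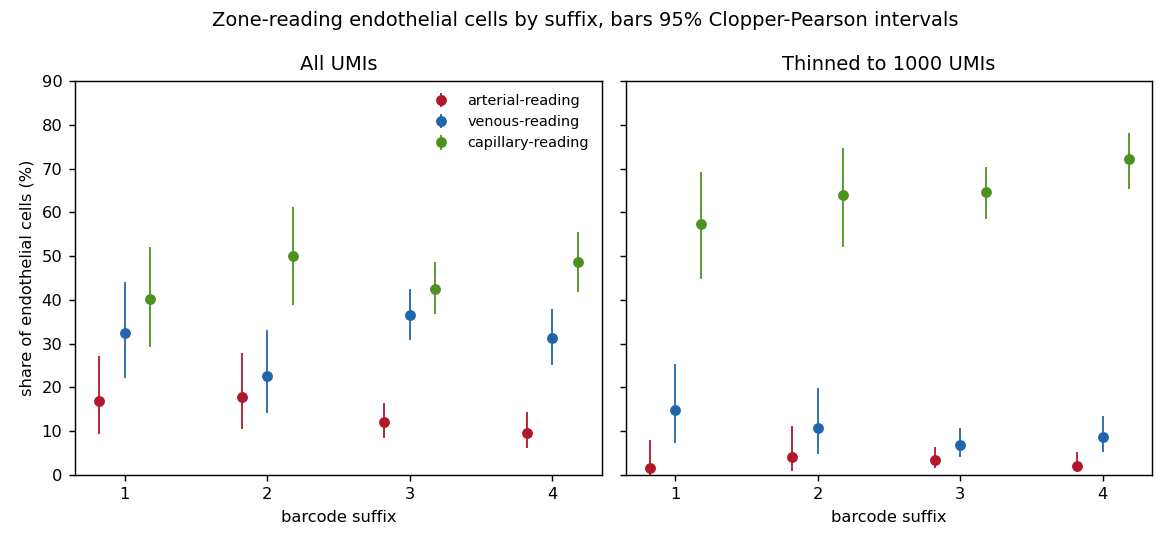
Share of endothelial cells (percent, y axis) that were arterial-reading (red), venous-reading (blue) or capillary-reading (green) in barcode suffixes 1 to 4, with all UMIs (left) and after thinning to 1000 UMIs per cell (right), bars being 95% Clopper-Pearson intervals. With all UMIs the capillary-reading share lies between 40.3% and 50%, and after thinning between 57.4% and 72.1%.

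The anchors themselves chose the classes. Gkn3, an arterial gene of the mouse brain, was at 380 CPM in arterial-reading cells, against 1.87 CPM in venous-reading and 5.39 CPM in capillary-reading cells. Bmx, an arterial tyrosine kinase, was at 101, against 2.34 and 5.39 CPM in the same order. Slc38a5, a glutamine carrier, was at 282 CPM in venous-reading cells, against 29.0 CPM in arterial-reading and 56.6 CPM in capillary-reading cells. Nr2f2, the venous identity factor COUP-TFII, was at 98.6 CPM in venous-reading cells, against 29.0 and 9.88 CPM. Il1r1, the interleukin 1 receptor, was at 76.2 CPM, against 2.52 and 6.29 CPM. Other anchors separated the classes less. Of 6 venous anchors tested, 4 were at least 2-fold lower in arterial- than in venous-reading cells, but Tmem252 and Vcam1 were not. Vcam1 in suffix 3 was at 126 CPM in arterial-reading and 90.6 CPM in venous-reading cells. Of 6 capillary anchors, 3 were so lower in arterial- than in capillary-reading cells, and 0 differed so between venous- and capillary-reading cells.

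Genes not used as anchors were compared with a call at 50 CPM in 1 class and a ratio of at least 2, with no suffix condition. Of 4310 genes tested between arterial- and venous-reading cells, 121 (2.81%) were higher in arterial-reading cells and 66 (1.53%) lower. Of 4385 between arterial- and capillary-reading cells, 145 (3.31%) were higher and 70 (1.6%) lower. Of 4263 between venous- and capillary-reading cells, 69 (1.62%) were higher in venous-reading cells and 39 (0.915%) lower. The median log2 ratio of all genes tested was -0.00243, 0.0128 and -0.0151 for the 3 pairs. These percentages, which include the anchors, are the background for the lists below. Outside the anchors, the genes lower in arterial-reading cells numbered 60 against venous-reading and 67 against capillary-reading cells. Leaving out suffix 2 raised these to 99 and 147, and leaving out suffix 3 to 134 and 109. Without suffix 4 there were 116 against capillary-reading cells, and venous over capillary had 110 higher and 66 lower in place of 63 and 38. The stricter cell filter, which left 22 arterial- and 58 venous-reading cells, gave 500 higher and 696 lower for arterial over venous.

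The arterial list outside the anchors had 21 members, of which 16 were tested against venous-reading cells, and 9 were higher and 0 lower in arterial-reading cells, against backgrounds of 2.81% and 1.53%, with a median log2 ratio of 1.28. Against capillary-reading cells 7 of 16 were higher, against 3.31% of all genes tested, and 0 lower, with a median of 0.88. The 9 over venous-reading cells were 7 without suffix 4, 15 under the stricter filter or with equal weight per cell, and 17 with zones read after thinning. The 7 over capillary-reading cells were 15 after thinning. All genes higher outside the anchors rose too. Over venous-reading cells they went from 116 to 500 under the stricter filter and to 530 after thinning. Over capillary-reading cells they went from 139 to 418 after thinning. Nothing is therefore read from the larger list counts in those settings. The summed list had 12080.1, 8460, 9427 and 11018 CPM in suffixes 1 to 4 of arterial-reading cells. It was at 6751, 4810, 4862 and 5047 CPM in venous-reading cells, and at 6759, 6705, 5613 and 5879 CPM in capillary-reading cells. Every suffix of the arterial-reading cells exceeded every suffix of the other classes, and 13 of the 21 members were higher than in venous-reading cells under all 4 suffixes. The same count was not made over all genes, so the 13 are a description without a background.

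Tm4sf1, a membrane protein of growing endothelium, was at 2121, 1180, 1560 and 1250 CPM in arterial-reading cells, and at 718, 389, 404 and 472 CPM in venous-reading cells. The pooled ratio was 3.29-fold (95% counting interval 3.02 to 3.59), and the suffix ranges did not overlap. Hey1, a Notch target, was at 283, 155, 99.6 and 228 CPM in arterial-reading cells, and at 27.2, 60.3, 26.8 and 42.3 CPM in venous-reading cells, with a ratio of 4.69 (3.48 to 6.36). Alpl, an alkaline phosphatase of the wall, was at 295, 226, 231 and 310 CPM, against 76.1, 46.9, 42.8 and 30.9 CPM, with a ratio of 5.97 (4.63 to 7.73). Both separated arterial- from venous-reading cells in every suffix. Alpl in capillary-reading cells was 119 CPM pooled, between its arterial and venous levels. By suffix it was at 265, 216, 76.5 and 102 CPM there, so suffixes 1 and 2 lay close to the arterial-reading cells. Its log2 ratio of arterial- over capillary-reading cells, 1.08, was 0.85 without suffix 3 and 0.68 with equal weight per suffix, and was not called in either.

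Mgp, an inhibitor of calcification, at chr6:136872435-136875823 on the minus strand, was at 401, 516, 325 and 70.1 CPM in arterial-reading cells, and at 76.1, 87.1, 58.7 and 14.6 CPM in venous-reading cells. Arterial-reading cells were higher in each suffix, suffix 4 was low in both classes, and the ranges overlapped. Mgp was at 1476 CPM in mural cells, and with barcodes of fewer genes and more mitochondrial UMIs admitted its log2 ratio over venous-reading cells turned to -0.51. The list also had higher levels in arterial-reading cells for Edn1, the vasoconstrictor endothelin (186 against 64.5 CPM in venous-reading cells), and for the netrin receptor Unc5b (119 against 25.7 CPM). Stmn2, a microtubule protein, was at 255 against 65.4 CPM, and Glul, glutamine synthetase, at 1365 against 623 CPM. Tgfb2, a growth factor, was at 241 against 88.3 CPM. The log2 ratio of Edn1, 1.51 over all suffixes, was 2.45 without suffix 3 and 0.87 without suffix 4, and that of Tgfb2, 1.44, was 0.73 without suffix 3. That of Glul, 1.13, was 0.96 without suffix 4, so that each of these 3 lost its call in 1 such setting. Within suffix 2, arterial-reading cells were not the higher class for Stmn2 (290 against 301 CPM) or Tgfb2 (51.6 against 87.1 CPM).

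Several arterial genes were too low to be tested or missed the ratio. Gja4, a connexin of arteries, was at 29.0 CPM in arterial-reading cells with UMIs in 18 of 83 cells, against 1.40 CPM in venous-reading cells with UMIs in 3 of 215. Gja5, another arterial connexin, was at 5.05 CPM and at 0 in both other classes. Sox17, an arterial transcription factor, was at 524 CPM, against 264 CPM in venous-reading and 353 CPM in capillary-reading cells, and was not called. Jag1 and Dll4, Notch ligands, were at 101 and 89.6 CPM, against 56.5 and 46.7 CPM in venous-reading cells, and were not called. Clu was called against capillary-reading cells, but 189 of its 296 UMIs in arterial-reading cells came from 1 cell, and its log2 ratio of 1.32 was -0.32 without suffix 3.

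The venous list outside the anchors had 12 members, of which 8 were tested against arterial-reading cells. In arterial-reading cells 4 were lower, against 1.53% of all genes tested, and 0 higher, with a median log2 ratio of -1.0. Against capillary-reading cells 4 of 8 were higher in venous-reading cells, against 1.62% of all genes tested, and 0 lower, with a median of 1.20. The number higher was 0 under the stricter filter and 7 with no minimum level. All genes higher outside the anchors rose from 63 to 445 and 586 in these settings. Summed over the list, arterial-reading cells had 1202, 916, 1075 and 1192 CPM in suffixes 1 to 4. Venous-reading cells had 3169, 3329, 2179 and 2896 CPM, and capillary-reading cells 1194, 1924, 1296 and 1604 CPM. Every suffix of venous-reading cells exceeded those of the other classes. Tmsb10 alone gave 1489, 1454, 1179 and 1577 CPM of the venous-reading sums. It gave 283, 561, 395 and 626 CPM of the capillary-reading sums. The order of the sums thus rests largely on 1 gene, and the list was not summed without it.

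Icam1, the adhesion molecule that leukocytes bind, at chr9:21015985-21028817 on the plus strand, was at 11.8, 25.8, 15.7 and 11.7 CPM in arterial-reading cells, and at 272, 389, 93.9 and 171 CPM in venous-reading cells. Its level in capillary-reading cells was 23.4 CPM, so venous-reading cells were 6.50-fold higher than those (4.36 to 10.1). Arterial-reading cells were at 0.108 of the venous level (0.0569 to 0.187), and the suffix ranges did not overlap. Tmsb10, an actin-binding thymosin, was at 153, 148, 273 and 298 CPM in arterial-reading cells, and at 1489, 1454, 1179 and 1577 CPM in venous-reading cells, with 484 CPM in capillary-reading cells. Both passed the ratio against each of the other classes. Under the stricter filter the log2 ratio over capillary-reading cells was 0.90 for Icam1, in place of 2.65, and 0.41 for Tmsb10, in place of 1.47, so that neither was called. After thinning that of Tmsb10 was 0.84.

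Nrp2, a co-receptor of VEGF, was at 73.4 CPM in venous-reading cells, against 26 CPM in capillary-reading cells, and at 21.5 CPM in arterial-reading cells. Its log2 ratio of arterial- over venous-reading cells, -1.73, was -2.72 without suffix 3 and -0.63 under the stricter filter. Vwf, von Willebrand factor, which binds platelets, was at 256.5 CPM in venous-reading cells and 92.5 CPM in capillary-reading cells, a ratio of 2.77 (2.24 to 3.46). Under the stricter filter the log2 ratio of venous- over capillary-reading cells was 0.81 for Vwf and 0.24 for Nrp2, in place of 1.46 for both, and neither was called. It was at 159 CPM in arterial-reading cells, which did not pass the ratio against venous-reading cells. Ctsc, a lysosomal protease, was at 50.5 CPM in arterial-reading and 127 CPM in venous-reading cells, and was not called without suffix 4 (log2 ratio -0.98, in place of -1.31). Ephb4, a venous receptor in development, was at 75.7, 73.4 and 74.5 CPM in arterial-, venous- and capillary-reading cells and did not separate them. Emcn and Flt4 were not called in any pair, and Sele, the E-selectin gene, had UMIs in 1 venous-reading cell.

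The capillary list outside the anchors had 11 members, all tested. In arterial-reading cells 4 were lower than in venous-reading cells, against 1.53% of all genes tested. The same number were lower than in capillary-reading cells, against 1.6%. In both pairs these were Slc22a8, Hmcn1, Car4 and Ndnf. The median log2 ratios were -0.56 and -0.82. Car4, a carbonic anhydrase on the vessel surface, at chr11:84957786-84966044 on the plus strand, had 259, 110, 267 and 175 CPM in suffixes 1 to 4 of arterial-reading cells. It was at 723, 502, 840 and 1073 CPM in venous-reading cells, and at 301, 664, 676 and 721 CPM in capillary-reading cells. Arterial-reading cells were thus lower in every suffix. Slc22a8 was at 183 CPM in arterial-reading cells, against 444 CPM in venous-reading and 462 CPM in capillary-reading cells. Hmcn1 was at 183, 405 and 634 CPM in the same order. The log2 ratio of Ndnf over capillary-reading cells, -1.21, was -0.45 without suffix 4 and 0.39 under the stricter cell filter. Over venous-reading cells, Hmcn1 lost its call without suffix 4 (-0.91, in place of -1.14) and Slc22a8 under the stricter filter (-0.52, in place of -1.28).

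Between venous- and capillary-reading cells 1 of 11 was lower in venous-reading cells, against the background of 0.915%, and 0 higher. That gene was Cxcl12, at 1711 CPM in venous-reading and 3590 CPM in capillary-reading cells. The list's summed level was 4907 CPM in arterial-reading, 6536 CPM in venous-reading and 8661 CPM in capillary-reading cells.

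**Figure D5:**
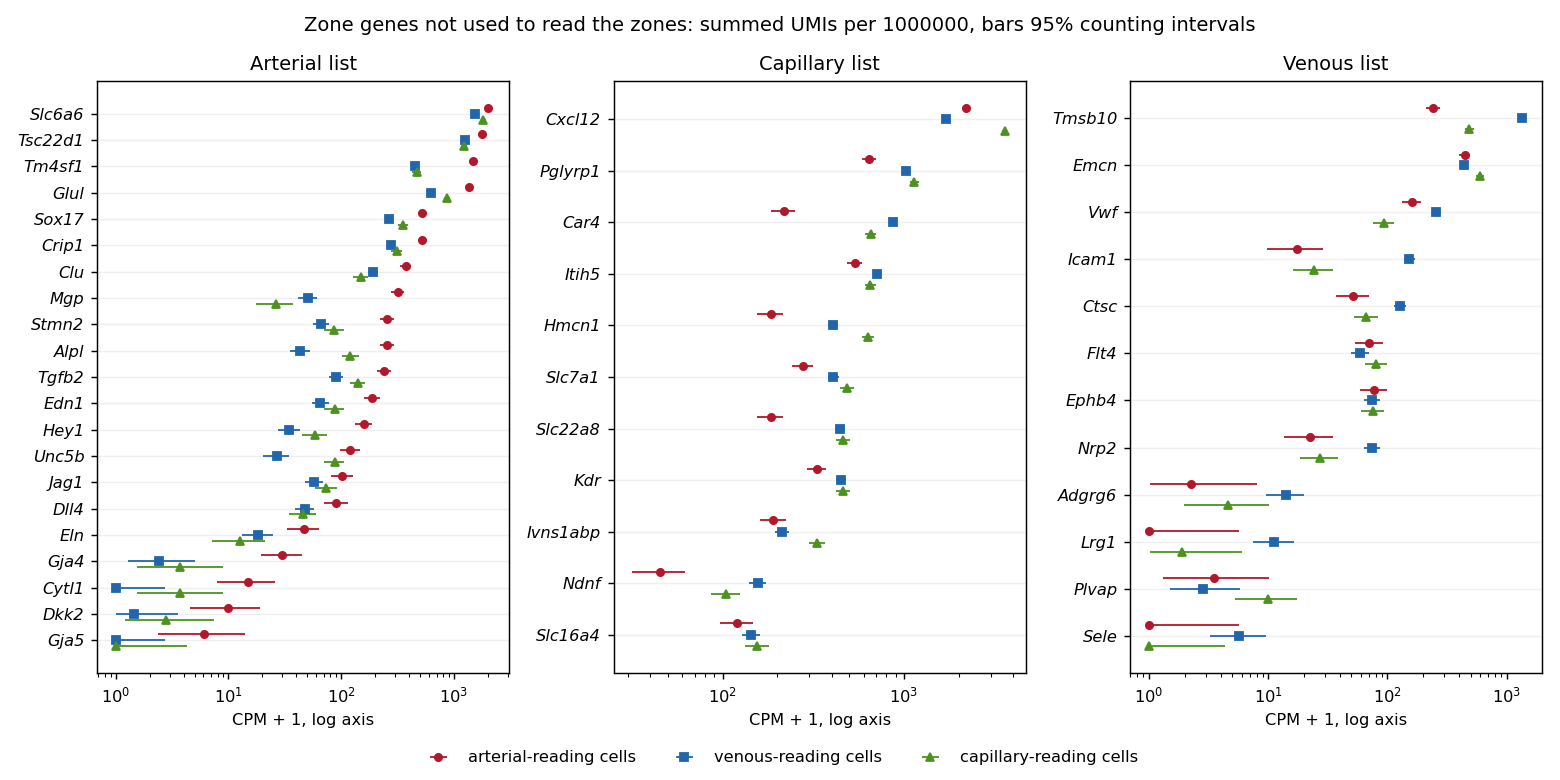
Summed levels (CPM + 1, log axis) of the arterial (left), capillary (middle) and venous (right) genes that were not anchors, in arterial-reading (red circles), venous-reading (blue squares) and capillary-reading cells (green triangles), with bars for 95% counting intervals. Red points lie right for Mgp, Alpl and Tm4sf1, red points lie left for Car4 and Hmcn1, and blue points lie right for Icam1 and Tmsb10.

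Of 22 carriers 20 were tested between arterial- and venous-reading cells. Slc7a5, Slc16a1 and Slc38a5 were lower in arterial-reading cells, but they are anchors, so that the choice of classes built this in. Outside the anchors 2 were lower, against a background of 1.53%, namely Slc22a8, a member of the capillary list too, and Slc40a1. Slc40a1, the iron exporter ferroportin, was at 172 CPM in arterial-reading and 360 CPM in venous-reading cells. Under the stricter filter, anchors included, 3 carriers were higher in arterial-reading cells, in place of 0, and 2 lower, in place of 5. Of the junction genes 0 of 10 tested were called in any pair. The same held for the Wnt and Norrin list, with 0 of 16, and for the identity list. The backgrounds were 0.915% to 3.31%, so 0 calls in lists of this size lay near them and nothing is read from this. With no minimum level 2 junction genes were higher in arterial- than in venous-reading cells, as were 2 Wnt and Norrin genes with equal weight per cell. Under the stricter filter 7 identity genes were higher there, where all genes higher outside the anchors rose from 116 to 500.

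Of 9 Notch genes 7 were tested, and Jag2 and Hey1 were higher in arterial-reading than in venous-reading cells, against 2.81% of all genes tested. Among immediate early and flow-responsive genes 8 of 16 were higher in arterial-reading than in capillary-reading cells, against a background of 3.31%, and 0 of 16 were called against venous-reading cells. With 1 suffix left out in turn, the 8 were 9, 10, 10 and 4, with equal weight per suffix 4, and with at least 3 anchors 2. Against venous-reading cells 8 were higher under the stricter filter. In venous-reading cells 3 of 16 were higher than in capillary-reading cells, against 1.62% of all genes tested. The 3 were 5, 7, 3 and 2 when suffixes were left out in turn and 0 under the stricter filter. Fos was at 1886 CPM in arterial-reading, 1103 CPM in venous-reading and 580 CPM in capillary-reading cells. Jun was at 2216, 1748 and 996 CPM in the same order. The median depth of these classes, 6579, 7620 and 2598 UMIs, differed too, and its part was not tested. Interferon genes were called in 1 of 24 for each of the pairs with arterial-reading cells, a share near the background, with Rsad2 at 161.5 CPM in arterial-reading and 71.5 CPM in venous-reading cells. No class I gene was called in any pair, again near the background. Under the stricter filter 12 interferon and 9 class I genes were higher in arterial- than in venous-reading cells, and 7 and 4 were higher than in capillary-reading cells. All genes higher outside the anchors rose under that filter too, to 500 and 411 in place of 116 and 139. After thinning, 4 interferon and 2 class I genes were instead lower in arterial- than in venous-reading cells, with 438 genes lower in place of 60. Nothing is read from these counts.

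Over all genes outside the anchors, the 10 highest and 10 lowest in each pair gave 60 choices, and in 27 of them over 50% of the UMIs of the higher class came from 1 cell. Tmem212 and Ccdc153, genes of ciliated cells, and Rarres2 had 154 of 156, 192 of 192 and 191 of 195 UMIs in 1 arterial-reading cell. Ttr had 16061 of 31675 UMIs in 1 venous-reading cell, and Lyz2 had 444 of 485. No ratio is given for such genes. The summed choroid plexus markers were at 633 CPM in arterial-reading, 15432 CPM in venous-reading and 680 CPM in capillary-reading cells, and erythroid markers at 21969, 15871 and 57889 CPM. Haemoglobin genes and Alas2 were lower in venous-reading than in capillary-reading cells as was that sum. The log2 ratios of Hbb-bs, Hbb-bt and Hba-a1 moved further below 0 without suffix 4, as for Hbb-bs with -2.85 in place of -1.88. Without cells holding over 1% of UMIs from another type, Hbb-bs was -0.89, Hbb-bt -0.93, Alas2 -0.42 and Hba-a1 -0.24, and none passed the ratio. With equal weight per cell Hbb-bs was -0.84 and Hba-a1 -0.81, which missed it, while Hbb-bt was -1.31 and Alas2 -1.05. Choroid genes such as Sostdc1, Igfbp2 and Chchd10 were higher in venous-reading than in capillary-reading cells, and without suffix 3 Sostdc1 and Chchd10 turned lower.

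The choices spread over more cells included several genes outside the lists. Igfbp3, a binding protein of insulin-like growth factors, was at 109 CPM in arterial-reading cells, against 3.74 CPM in venous-reading and 8.98 CPM in capillary-reading cells. Nov, a matricellular protein, was at 151, 9.34 and 12.6 CPM in the same order. Both were thus over 10-fold higher in arterial-reading cells than in either class. Fmo2, a monooxygenase, was at 18.9 CPM in arterial-reading, 83.2 CPM in venous-reading and 62.0 CPM in capillary-reading cells. Flrt2, a guidance protein, was at 21.5, 93.4 and 44.0 CPM, and Adgrl3, an adhesion receptor, at 21.5, 77.6 and 105 CPM. Phlda1 was at 56.5 CPM in venous-reading and 6.29 CPM in capillary-reading cells. Kcp, Ube2o, Gdap10 and Vegfa were lower in arterial-reading than in capillary-reading cells, with 12.6, 16.4, 16.4 and 22.7 CPM against 50.3, 59.3, 53 and 84.4 CPM. With 1 suffix left out, the arterial over venous log2 ratio of Igfbp3 (4.53) ranged between 3.47 and 5.74, and that of Nov (3.88) was 6.79 without suffix 3. With barcodes of 200 genes and up to 20% mitochondrial UMIs admitted, Nov was at 0.16 and was not called. Fmo2 (-2.08) was -3.46 without suffix 2 and -0.12 under the stricter filter, where Flrt2 was -0.63, in place of -2.07, and neither was called. Phlda1, with 2.98 for venous over capillary, was 4.18 without suffix 3 and 1.79 without suffix 4. Vegfa, with -1.85 for arterial over capillary, was -2.80 without suffix 2, -1.17 without suffix 4 and 1.11 after thinning.

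In sorted brain the same rule chose 123 of 10076 kept cells, a share of 1.22%, with 11, 22, 29 and 61 cells under suffixes 1 to 4. Their median depth was 1399 UMIs, against 4117 UMIs in total brain, and the sort, ages, sexes and depth of the samples cannot be told apart. Endothelial cells of total brain had 4403 CPM of Cldn5, against 6837 CPM in those of sorted brain. Flt1 was at 3419 CPM in total brain and 1309 CPM in sorted brain, and Slc2a1 at 2414 and 1185 CPM in that order. The choroid plexus markers summed to 8490 CPM in total and 106420 CPM in sorted brain. Zone classes were not read in the 123 sorted cells.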

How the data were processed

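Single-cell RNA sequencing counts of total brain and sorted brain were used. The authors deposited raw UMI counts per gene and cell barcode, whole numbers for 31053 genes, with cells already called. The submitters' processing notes name Cell Ranger 3.0.2 and genome build mm10 for both samples, while, per the file headers, total brain was made with version 3.1.0 and sorted brain with 3.0.2. Neither names the annotation used in counting. There were 0 columns of other samples in the matrices.

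Kept cells, the endothelial rule, mural cells and zone anchors are as stated in the report. Counts were summed per group and scaled to all UMIs of that group. Levels have exact Poisson, ratios exact binomial and shares exact Clopper-Pearson 95% intervals. Suffixes entered a call when they held at least 50 endothelial cells (10 cells in each group against mural cells). Scrublet was run per suffix, and the doublets it called stayed in. Thinning drew 1000 UMIs per cell with a fixed seed. Genes were named by rule: the 20 highest ratios over other cells and 10 over mural cells among called genes of at least 100 CPM, the 10 highest and 10 lowest in each pair of zones outside the anchors, the 10 largest suffix spreads, and members of the lists, of which a few genes are not reported here. All 326 genes of 30 lists were found by symbol, as was 1 list added later, of ependymal markers. Cells, members and lists were chosen with earlier results of these data known. The calculations were tested on simulated data. Python 3.11.15, numpy 2.4.6, scipy 1.17.1, pandas 2.3.3 and scanpy 1.11.5 were used. Of the gene IDs, 31011 matched GENCODE M21 on GRCm38, which gave gene positions.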

Additional observations from a re-analysis of the deposited data

How the results depend on the processing

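No paired analysis was possible because each group is 1 pooled sample. Counts of cells and of all genes called were within 1.5 times of those reported under alternatives not named here. Number and share of endothelial cells: a looser filter (200 genes, 20% mitochondrial UMIs) gave 1014 cells and 7.70%, and a stricter one (1000 genes, 5%) gave 174 cells and 4.47%. The share was 8.10% with at least 4 rule genes, 6.37% with at least 6, 2.95% (276 cells) with 0 mural genes, 9.69% with no mural limit and 9.27% when cells were thinned first. Without suffix 3 there were 379 cells.

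Zones: the looser cell filter gave 498 capillary-reading cells, and the stricter one 22 arterial-, 58 venous- and 81 capillary-reading cells. At least 3 anchors gave 43 arterial- and 116 venous-reading cells, 1 exclusive anchor gave 132 capillary-reading cells, and thinning gave 17 arterial- and 53 venous-reading cells. Without suffix 3 there were 49 arterial-, 112 venous- and 179 capillary-reading cells, and without suffix 4 there were 193 capillary-reading cells.

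Genes called outside the anchors, where 116 were higher and 60 lower for arterial over venous, 139 and 67 for arterial over capillary, and 63 and 38 for venous over capillary: the looser filter gave 246 higher for arterial over capillary and 116 higher for venous over capillary. The stricter filter gave 500 and 696, 411 and 454, and 445 and 157 for the 3 pairs. No minimum level gave 683 and 695, 726 and 535, and 586 and 331. Thinning gave 530 and 438, 418 and 320, and 113 and 69. At least 3 anchors gave 102 lower for arterial over venous, and 74 and 40 higher for the pairs over capillary. A pseudocount of 10 CPM gave 36 lower for arterial over capillary. Leaving out suffix 2 gave 99 and 147 lower for the arterial pairs, and leaving out suffix 3 gave 134 and 109. Leaving out suffix 4 gave 116 lower for arterial over capillary, and 110 higher and 66 lower for venous over capillary. Chosen after seeing the data, leaving out cells with over 1% of UMIs from another type gave 165 lower for arterial over capillary and 38 higher for venous over capillary. Equal weight per cell, also chosen after seeing the data, gave 134, 266 and 81 lower. Against other cells, no minimum gave 3385 lower. Against mural cells it gave 1564 higher and 1473 lower, and TMM gave 533 lower.

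Signs turned as follows on the log2 scale, and the cause was not tested. For arterial over venous, Mgp was -0.51 under the looser filter, Ndnf 0.27 under the stricter one and Igfbp2 1.26 after thinning. For arterial over capillary, Ndnf was 0.39 and Clu -0.017 under the stricter filter, Clu -0.32 without suffix 3, -0.53 with 3 anchors and -0.15 without cells of mixed markers, and Vegfa 1.11 after thinning. For venous over capillary without suffix 3, Calml4 and Sostdc1 were -2.06, Spint2 -1.10, Fxyd1 -0.11 and Chchd10 -0.16. Without cells of mixed markers Sostdc1 was -1.74, Igfbp2 -0.68, Spint2 -0.54, Fxyd1 -0.14 and Chchd10 -0.13, and after thinning Sostdc1 was -0.83 and Fxyd1 -0.064. Among alternative log2 ratios of named genes, those that moved beyond counting error, those that did not and those that turned numbered 249, 111 and 0 over other cells, 154, 659 and 3 for arterial over venous, 136, 690 and 6 for arterial over capillary, and 179, 705 and 12 for venous over capillary. Of the 36 counts higher and lower over 18 gene lists, the stricter filter moved 18 for arterial over venous, 12 for arterial over capillary and 13 for venous over capillary by over 1.5 times or to or off 0. Thinning moved 16, 15 and 9 in that order. Against other cells the stricter filter moved 7 and against mural cells 5, and each further alternative moved at most 8 of the 36 in any comparison.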
